A study of Homo sapiens with 6 samples.

Results

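MYC and 40 genes of ribosome biogenesis were followed, which makes 41 of the genes in a table of 19912 rows. The members were chosen by symbol: the transcription factor MYC, RNA polymerase I and its factors, the proteins of the small nucleolar ribonucleoproteins (snoRNPs), and factors that process ribosomal RNA (rRNA) and assemble the subunits. Earlier results of these data were known at that choice. Shares of members called, set beside those of all rows, are therefore a description and not an independent comparison. All 41 symbols were found, on 42 rows, since EMG1 occurs on a pair of rows. RNA came from 6 libraries of cells labelled Panc-1, an established line (PANC-1) from a human ductal carcinoma of the pancreas, in a form labelled as resistant to gemcitabine. The 3 control libraries carry the treatment label ctrl and the 3 others the label shSRSF3, which names a short hairpin against SRSF3, a serine/arginine-rich splicing factor. Both groups share the line and the resistance. Hairpin sequences, the number of clones, the time after delivery and the origin of the replicates were not found in the labels, and p-values therefore reflect the spread among 6 libraries that may be technical repeats.

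Ribosomes are built in the nucleolus. RNA polymerase I transcribes the precursor of the 18S, 5.8S and 28S rRNAs. Box C/D snoRNPs guide methylation of its ribose and H/ACA snoRNPs guide pseudouridylation. Large sets of processing factors cut the precursor and fold it into the small and large subunits. MYC, which binds DNA with its partner MAX, is known to raise transcription of many of these genes in growing tumour cells, pancreatic carcinoma among them.

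Values are FPKM (fragment numbers scaled by gene length and by library total) as the authors deposited them. The library totals recovered from the steps of the values ran from 24558238 to 27351642 fragments. SRSF3 itself was measured at 37.0, 39.6 and 39.2 FPKM (controls) against 36.9, 37.1 and 38.6 FPKM (knockdown label). The change was -2.65% (95% interval from -9.68% to 4.92%, limma adjusted p = 0.612), and p was 0.3 by an exact two-sided permutation test, which cannot go below 0.1 with 3 against 3. No fall of SRSF3 mRNA was thus detected, so directions are given with respect to the label. Of the line's epithelial markers, KRT8, KRT18, KRT19, EPCAM and CDH1 were at 71.4 to 2067 FPKM, whereas vimentin (VIM), which PANC-1 cells are known to express, was at 0.00709 to 0.0389 FPKM in the 6 libraries. The 12 markers of leukocytes, endothelium, fibroblasts, islets and acini were at 0.751 FPKM or less, with PTPRC, COL1A2, INS and GCG at 0 in every library. SURF6 and BDP1, which every cell uses, were listed at 0 as well, so values this low, VIM included, may not show absence. Knockdown library 1 stood apart: its FPKM values summed to 336887, against 275359 to 285701 in controls and 308101 and 287148 in knockdown libraries 2 and 3.

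In the libraries labelled knockdown, 15 of 40 tested members were called higher and 1 lower, where 10.9% of all tested rows were called higher and 5.91% lower. MYC rose by 25.6%, and 14 more members rose, among them MYBBP1A, RRP12, BYSL, RRP9, BOP1, NOP16 and PES1. TCOF1, the nucleolar protein treacle, was the only member that fell. Differences were small, from 0.20 to 0.37 on the log2 scale among the members that rose, and with libraries scaled to equal FPKM sums 2 of the 15 calls were left.

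Each member was tested within a limma fit over all rows whose mean reached 0.5 FPKM, on log2(FPKM + 1), and a gene was called when its Benjamini-Hochberg adjusted p over the whole table was under 0.05. Fold changes are on that scale and understate the change of low genes. The calls came to 37.5% of the members higher and 2.5% lower, against 10.9% and 5.91% of the 10823 tested rows. The median log2 change was 0.16 over the members and 0.02 over all tested rows. An estimate above 0 was found for 36 of 40 members and for 6002 of the 10823 tested rows. Groups did not overlap, with the knockdown label higher, in 23 of 40 members (22.6% of all tested rows) and, lower, in 1 (15.3% of all tested rows). Not tested were NOP2 and the lower of the EMG1 rows, because their means were under the filter. Members were more often abundant than other rows: 35 of 40 reached a mean of 5 FPKM, against 6311 of 10823 tested rows. In a fit of rows that abundant, 19.1% were called higher and 7.27% lower, and 17 members were higher and 1 lower. The median log2 change was then 0.17 over the members and 0.05 over all rows fitted.

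**Figure D1:**
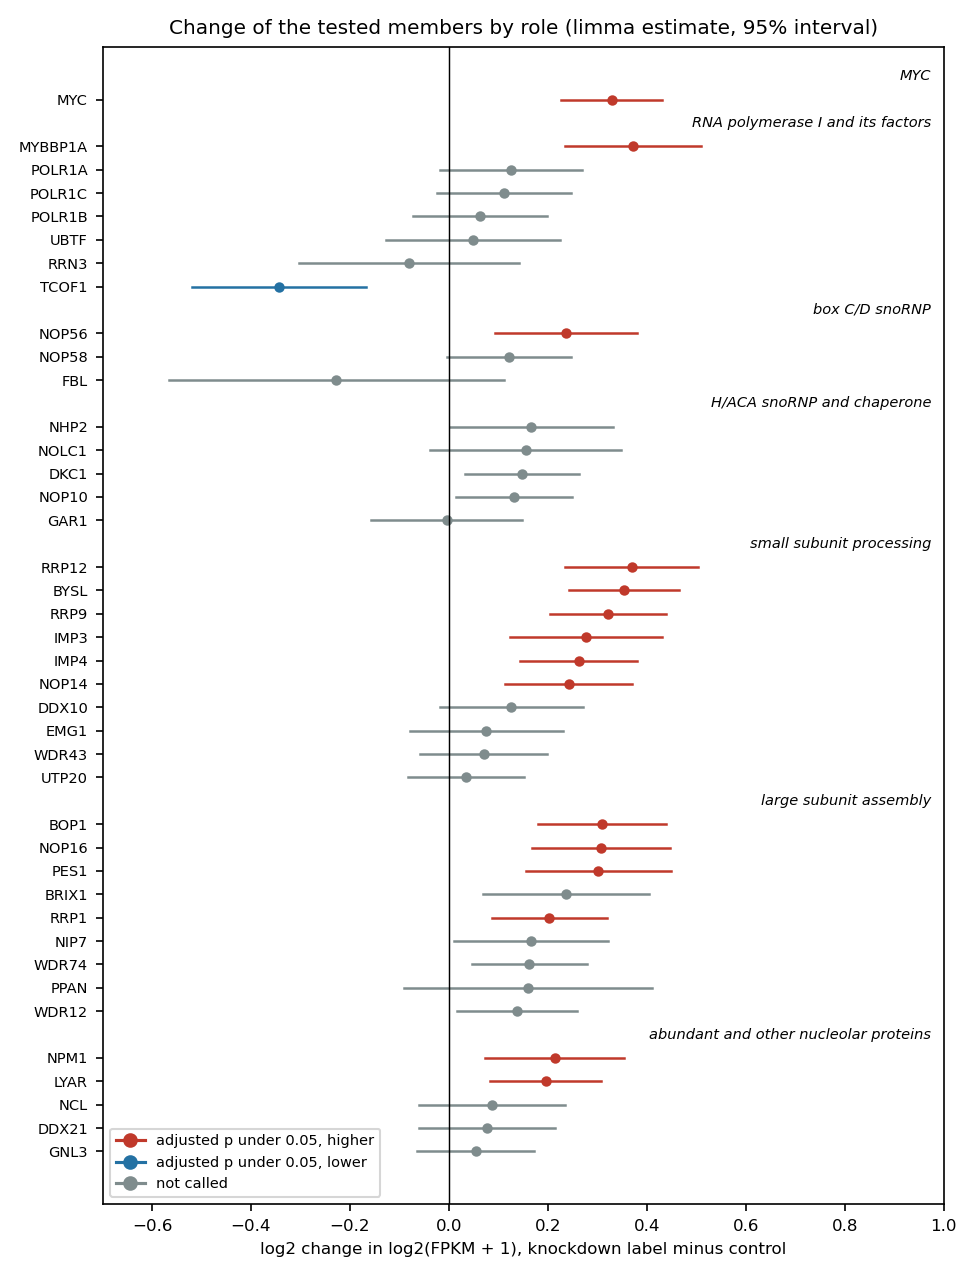
Estimated log2 change of each tested member (x axis, knockdown label minus control, on log2(FPKM + 1)) with its 95% interval, grouped by role; red marks a limma adjusted p under 0.05 and a higher level, blue a lower level, grey no call. Of 40 members 36 lie to the right of 0, and TCOF1 alone is called to the left, at -0.34. Of all 10823 tested rows, which are not drawn, 6002 had an estimate above 0.

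The count depended on how the libraries were set on a common scale. FPKM sums were higher under the knockdown label, and scaling every library to the same sum left 2 members higher, MYBBP1A and RRP12, and TCOF1 lower. That scaling moved the median of all tested rows from 0.02 to -0.09, and the members' median to 0.03, so that 35 of 40 members stayed above the median of all rows and 24 of 40 above 0. Of all tested rows, 1.39% were then called higher and 8.1% lower. With the 13 mitochondrial mRNAs left out of the sums, 10 members were higher and 1 lower (4.82% and 11.2% of all rows), with medians of 0.07 for members and -0.05 for all rows. With median scaling 14 members were higher and 1 lower (8.83% and 7.48% of all rows), with quantile normalization 11 and 1 (7.55% and 7.47%), and with a minimum mean of 5 FPKM 17 and 1 (19.1% and 7.27%). Without control library 2, 7 members were higher and 0 lower (3.74% and 2.21% of all rows), and without control library 3, 7 and 1 (3.58% and 2.4%).

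**Figure D2:**
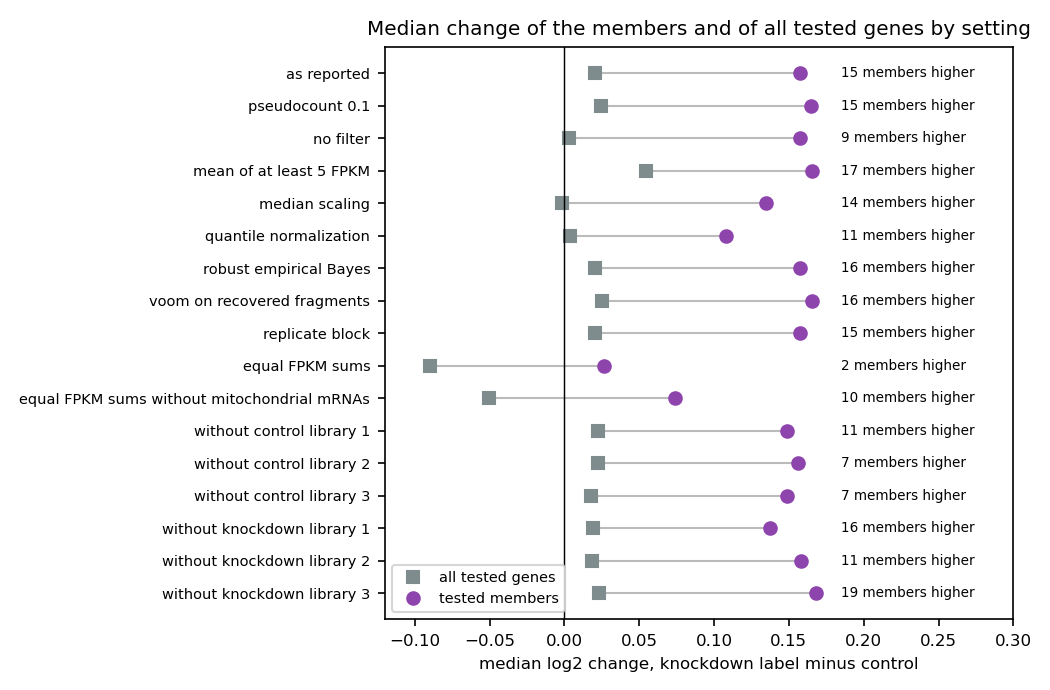
Median log2 change (x axis, knockdown label minus control) of the tested members (circles) and of all tested genes (squares) under each setting (rows), with the number of members called higher. The circle lies to the right of the square in every row, while both move left when libraries are scaled to equal FPKM sums.

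The members' shift was present in each library that carries the knockdown label. The members' median distance from the control mean was 0.21, 0.15 and 0.14 (log2) in knockdown libraries 1 to 3, against -0.02 to 0.01 in the control libraries. Over all tested rows the same distance was 0.01 to 0.02 under the knockdown label. Mitochondrial mRNAs were above the control range in knockdown libraries 1 and 2 alone. Their FPKM summed to 70369 to 74760 among controls, against 108068, 84716 and 73651 for knockdown libraries 1 to 3. Of these mRNAs 2 of 13 were called higher and 0 lower by limma (6 and 0 at an unadjusted p under 0.05, 7 and 0 by voom). The share called higher was 15.4%, against 10.9% of all tested rows. Knockdown library 3 had a mitochondrial sum within the control range and a members' median distance of 0.14. Without knockdown library 1 the counts were 16 members higher and 1 lower (9.9% and 5.27% of all rows). Of the 40 tested members, 18 had their highest knockdown value in knockdown library 1, 14 in library 2 and 8 in library 3.

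MYC encodes a basic helix-loop-helix transcription factor that drives cell growth. Its level was 42.8, 42.6 and 41.2 FPKM among controls, against 53.1, 52.2 and 54.4 FPKM with the knockdown label. All 3 knockdown values lay above all 3 control values, and the gap between groups was larger than the spread within them. The log2 change was 0.33 (SE 0.05, limma adjusted p = 0.00204), and the call held without each library in turn. It was lost with equal FPKM sums (adjusted p = 0.0899), and over the 16 alternatives the adjusted p ran from 0.000926 to 0.0899. MYC belongs to the genes that growth signals induce early. Of 12 other tested immediate early genes, 7 were called higher and 0 lower (8 and 0 at an unadjusted p under 0.05, 7 and 0 by voom). The share called higher was 58.3%, against 10.9% of all tested rows. All 16 genes of that list summed to 270.2 to 289.7 FPKM in controls and 344.2 to 370.4 FPKM under the knockdown label. Their part in the result was not tested.

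The 6-base sequence CACGTG, the canonical E-box to which MYC and MAX bind, was searched in RefSeq promoter windows of GRCh38.p14, which run from 250 bases before to 50 bases after each gene's start. The motif reads the same on both strands. A window was found for 35 of the 41 members, and not for MYC, TCOF1, NOP58, NOLC1, RRP12 and BOP1. At least 1 window held the motif in 15 of these 35 members (42.9%). The same held for 1117 of 8618 tested genes with a window (13.0%) and 2396 of all 27305 genes with a window (8.8%). Counted by window and not by gene, 2548 of all 35116 held it (7.26%). Among members called higher it was found in 7 of 12 (58.3%), and among tested members that were not called in 7 of 22 (31.8%), so members with the motif occurred on both sides of the threshold. The same shares over all tested genes were 18.8% of those called higher and 12.4% of those not called. Related lists held the motif in 36.4% (other small subunit factors), 32.4% (other large subunit factors) and 43.3% (MYC targets outside the nucleolus) of their genes with a window. The share was 33.3% for polymerase III genes and 28.6% for the MYC network. It was 7.7% for other polymerase I genes and 10.0% for the nuclear exosome and RNase MRP, under the 13.0% of tested genes. These are matches of letters, and binding was not measured. The sites of the 7 members called higher are shown first, followed by sites of 3 members not called (DDX21, UTP20 and NOP10, for which the site nearer the start is given), so that both sides of the threshold can be read. Each stretch is at most 30 bases, reads 5′ to 3′ on the gene's strand, and has the motif in capitals.
BYSL, chr6:41921515-41921544 (+): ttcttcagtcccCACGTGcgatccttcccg
RRP9, chr3:51941892-51941921 (-): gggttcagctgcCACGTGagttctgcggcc
MYBBP1A, chr17:4555340-4555369 (-): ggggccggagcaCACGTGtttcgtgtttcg
PES1, chr22:30591880-30591909 (-): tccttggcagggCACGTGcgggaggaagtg
NOP14, chr4:2963374-2963403 (-): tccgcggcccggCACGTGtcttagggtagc
LYAR, chr4:4290068-4290097 (-): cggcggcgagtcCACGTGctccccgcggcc
IMP4 upstream, chr2:130342682-130342711 (+): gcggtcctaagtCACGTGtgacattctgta
IMP4 downstream, chr2:130342900-130342929 (+): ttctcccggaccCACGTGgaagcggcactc
DDX21, chr10:68956604-68956633 (+): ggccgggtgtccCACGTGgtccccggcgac
UTP20, chr12:101280083-101280112 (+): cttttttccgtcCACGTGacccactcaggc
NOP10, chr15:34343130-34343159 (-): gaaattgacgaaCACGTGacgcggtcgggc

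Of the 7 members among RNA polymerase I and the factors that act on it, 1 was called higher and 1 lower. That is 14.3% each, against 10.9% and 5.91% of all tested rows, and with so few genes the counts are a description only. MYBBP1A, a nucleolar protein that binds MYB and takes part in rRNA synthesis and processing, stood at 45.2, 44.1 and 40.9 FPKM in controls and at 58.1, 59.3 and 52.1 FPKM under the knockdown label. Every knockdown value was above every control value, and the log2 change of 0.37 (SE 0.06, limma adjusted p = 0.00425) was the largest among the members. This call held in all 16 alternatives, with adjusted p from 0.00165 to 0.0324. TCOF1, which works with the polymerase I factor UBTF at the rRNA genes, moved the other way, from 31.9, 30.9 and 29.9 FPKM to 26.8, 25.1 and 20.9 FPKM. The groups did not overlap, and knockdown library 3 was the lowest. TCOF1 fell by 0.34 on the log2 scale (SE 0.08, limma adjusted p = 0.0174). Its call was lost with no filter (0.0725) and without control library 1 (0.0618) or 2 (0.0591), and was kept with equal FPKM sums (0.00168), the lowest p of its alternatives.

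The catalytic core was not called. POLR1A and POLR1B, the largest and second-largest subunits, had log2 changes of 0.13 (95% interval from -0.02 to 0.27) and 0.06 (from -0.07 to 0.20). POLR1C, which RNA polymerase III also uses, had 0.11 (from -0.02 to 0.25), although its groups, at 5.78 to 6.51 FPKM and 6.53 to 7.12 FPKM, did not overlap. UBTF, which binds the promoter of the rRNA genes, stood at 26.0, 27.1 and 24.7 FPKM in controls and at 30.3, 27.2 and 23.6 FPKM under the knockdown label, with the 3 knockdown libraries spread around the controls. RRN3, which brings the polymerase to its promoter, was the least abundant tested member, with 0.686 to 1.30 FPKM in controls and 0.836 to 0.879 FPKM under the knockdown label (78 to 133 fragments), and it has near-identical copies with which reads can have been shared.

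Of the box C/D snoRNP proteins, which form the particle that methylates ribose in rRNA, NOP56 rose. It stood at 63.7, 63.4 and 61.6 FPKM in controls and at 82.5, 71.25 and 69.8 FPKM under the knockdown label, where library 1 was the highest and no value fell into the control range. The log2 change was 0.24 (SE 0.06, limma adjusted p = 0.0325). Its call was lost with no filter (0.0874), with quantile normalization (0.0893), with equal FPKM sums (0.177, or 0.0677 without mitochondrial mRNAs), without any 1 of control libraries 1, 2 and 3 (0.0804, 0.103 and 0.119) and without knockdown library 2 (0.0591), against a lowest value of 0.0126 over the alternatives. NOP58, its partner in the particle, had 25.4 to 26.7 FPKM in controls and 27.1 to 30.8 FPKM under the knockdown label, which did not overlap, with a log2 change of 0.12 (95% interval from -0.0042 to 0.25, limma adjusted p = 0.163). FBL, the methyltransferase of the same particle, was listed at 5.25, 2.61 and 3.57 FPKM in controls and 3.18, 2.96 and 2.88 FPKM under the knockdown label, from 145 to 280 fragments. Per length, that is far below its partners, and control library 1 was the highest. Some genes that every cell uses were listed lower still, with SURF6 and BDP1 at 0 in all 6 libraries and the translation factor EIF4A1 at 0.557 FPKM on average in controls, so the listed values of FBL and of other very low members may not measure their mRNA. The log2 estimate for FBL was -0.23 (95% interval from -0.57 to 0.11).

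Among the H/ACA snoRNP proteins, which form the particle that makes pseudouridine, and their chaperone, 0 of 5 passed the limma threshold, with 3 higher and 0 lower at an unadjusted p under 0.05 and 0 by voom. Over all tested rows 10.9% were called higher, a share near which 0 of 5 also lies. Without knockdown library 3, 3 of the 5 were called higher, while over all rows the count higher rose from 1179 to 1773. NOP10, the smallest and here the most abundant subunit, stood at 112.9, 121.4 and 114.1 FPKM in controls and at 126.5, 131.4 and 123.8 FPKM under the knockdown label. DKC1, the pseudouridine synthase dyskerin, stood at 38.6, 38.3 and 37.7 FPKM and at 45.1, 42.0 and 40.5 FPKM. In both genes the groups did not overlap, with log2 changes of 0.13 (95% interval from 0.01 to 0.25, adjusted p = 0.114) and 0.15 (from 0.03 to 0.26, adjusted p = 0.0759). NHP2 had a log2 change of 0.17 (from 0.0013 to 0.33), and the chaperone NOLC1 had 0.16 (from -0.04 to 0.35); the highest value of both was in knockdown library 1, at 59.4 and 115.6 FPKM, and library 3, at 47.2 and 88.1 FPKM, lay within the control range. GAR1 had an estimate of -0.0046 (from -0.16 to 0.15), with knockdown library 1 above and libraries 2 and 3 below all controls.

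**Figure D3:**
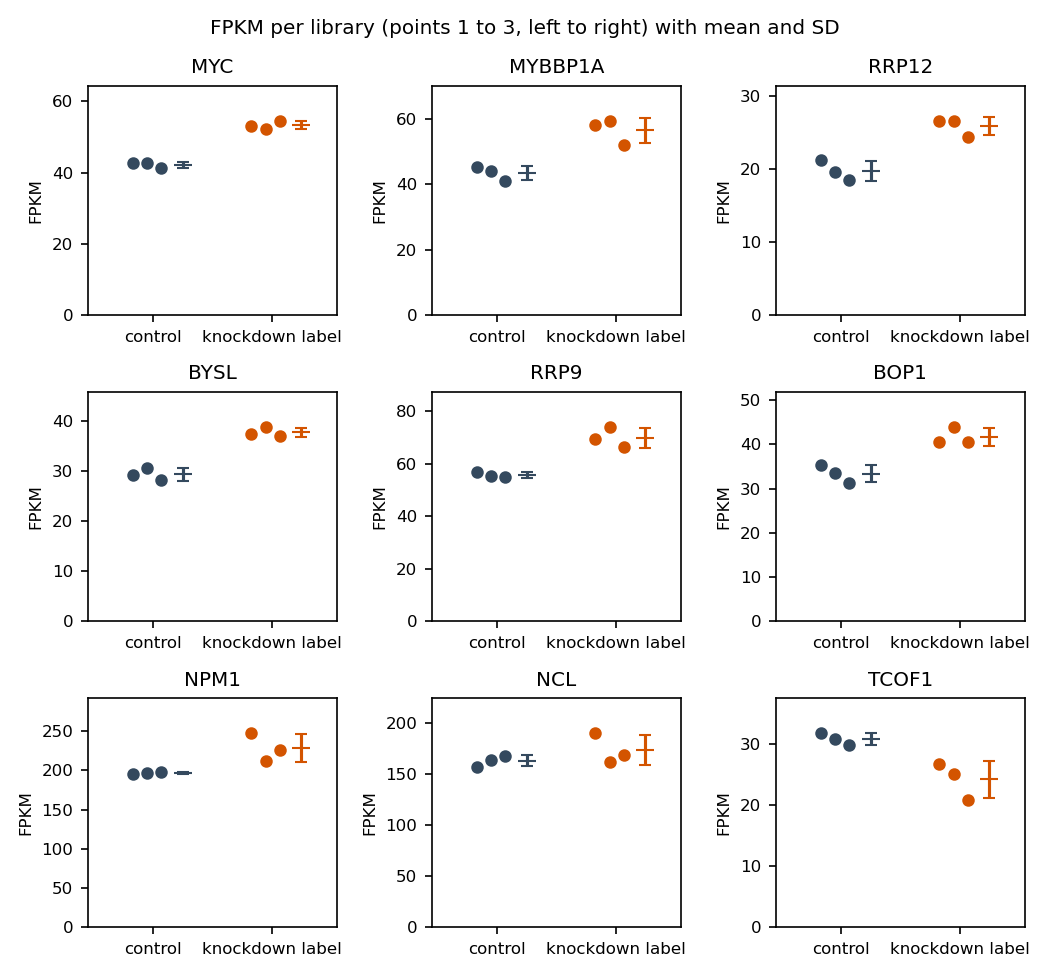
Deposited FPKM (y axis, from 0) of 9 members in each library, with controls on the left and the knockdown label on the right; bars give the mean and SD of 3 libraries. MYC, MYBBP1A, RRP12, BYSL, RRP9, BOP1 and NPM1 are higher in every knockdown library than in any control, NCL overlaps and TCOF1 is lower.

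Factors that process the 18S side of the precursor, the small subunit, had 6 of 10 called higher and 0 lower (6 and 0 at an unadjusted p under 0.05, and the same numbers by voom). Without control library 3 the count was 3 higher, and with equal FPKM sums 1. Over all tested rows the share called higher fell as well, from 10.9% to 3.58% and 1.39%. RRP12, a HEAT-repeat protein needed for late maturation and export, stood at 21.2, 19.6 and 18.5 FPKM in controls and at 26.5, 26.5 and 24.4 FPKM under the knockdown label. BYSL, which acts late in small subunit assembly, stood at 29.2, 30.6 and 28.1 FPKM and at 37.4, 38.8 and 37.0 FPKM. RRP9, a protein of the U3 snoRNP and the most abundant gene of the set, stood at 56.9, 55.4 and 54.9 FPKM and at 69.5, 74.0 and 66.4 FPKM. In all 3 genes the lowest knockdown library was above the highest control. Their log2 changes were 0.37 (SE 0.06) for RRP12, 0.35 (SE 0.05) for BYSL and 0.32 (SE 0.05) for RRP9, with limma adjusted p of 0.00398, 0.0021 and 0.00411. The RRP12 call held in all 16 alternatives (adjusted p from 0.00162 to 0.0429), and those of BYSL and RRP9 in all but equal FPKM sums (0.0599 and 0.0822).

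IMP4 and IMP3, which join the U3 snoRNP to the precursor, and NOP14, another early processing factor, rose as well. IMP4 stood at 32.4, 32.0 and 29.2 FPKM in controls and at 37.7, 38.5 and 36.6 FPKM under the knockdown label. IMP3 stood at 8.72, 8.01 and 8.41 FPKM and at 9.80, 9.77 and 11.6 FPKM, with knockdown library 3 the highest. NOP14 stood at 42.7, 41.2 and 39.2 FPKM and at 50.5, 50.4 and 45.3 FPKM. The groups overlapped in none of these 3 genes, and the log2 changes were 0.26, 0.28 and 0.24 (SE 0.05, 0.07 and 0.06) with limma adjusted p of 0.0103, 0.0233 and 0.0195. The IMP4 call was lost without control library 3 (0.0536), that of IMP3 without control library 2 (0.0981) or 3 (0.0758) and with no filter (0.074), and that of NOP14 without control library 2 (0.0755) or 3 (0.0927), without knockdown library 2 (0.0747) and with no filter (0.0547). Equal FPKM sums gave 0.196, 0.34 and 0.201, the highest values over the alternatives of each gene, and 0.128 for IMP3 without mitochondrial mRNAs. The lowest were 0.00566, 0.0126 and 0.00495.

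The other 4 small subunit members were not called. DDX10, an RNA helicase, had 3.999 to 4.20 FPKM in controls and 4.24 to 5.02 FPKM under the knockdown label, which did not overlap, and a log2 change of 0.13 (95% interval from -0.02 to 0.27). UTP20, a large scaffold protein, and WDR43, a processome subunit, had estimates of 0.03 (from -0.08 to 0.15) and 0.07 (from -0.06 to 0.20), with overlapping groups. EMG1, which methylates a pseudouridine of 18S rRNA, had 2.25 to 2.46 FPKM in controls and 2.24 to 2.72 FPKM on its tested row (log2 0.08, from -0.08 to 0.23), and its other row, with 5 to 18 fragments, was under the filter.

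Factors of the large subunit had 4 of 9 tested members called higher and 0 lower (8 and 0 at an unadjusted p under 0.05, 5 and 0 by voom). The count higher was 1 without control library 2, 2 without control library 3 or with no filter, 7 without knockdown library 1 and 0 with equal FPKM sums. Over all rows, 1179 higher became 404 without control library 2, 387 without control library 3 and 595 with no filter. The count over all rows was 1071 without knockdown library 1 and 150 with equal FPKM sums. PES1, BOP1 and WDR12 form the PeBoW complex, which processes the precursor on the 28S side. BOP1 stood at 35.4, 33.5 and 31.4 FPKM in controls and at 40.5, 43.9 and 40.5 FPKM under the knockdown label. PES1, the most abundant of the set, stood at 44.1, 42.6 and 42.3 FPKM and at 57.9, 54.3 and 47.9 FPKM. WDR12 stood at 4.79, 4.95 and 5.12 FPKM and at 5.70, 5.37 and 5.58 FPKM. None of the 3 subunits had overlapping groups, and the estimates were 0.31 (SE 0.06, limma adjusted p = 0.00741), 0.30 (SE 0.07, 0.0141) and 0.14 (SE 0.05, 0.112), so that WDR12 did not pass. The BOP1 call was lost with equal FPKM sums alone (0.136, against 0.00351 to 0.136 over the alternatives). That of PES1 was lost there (0.0573), with no filter (0.0547), without control library 2 (0.0595) or 3 (0.0593) and without knockdown library 2 (0.0552), against a lowest value of 0.00192.

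NOP16, which joins early large subunit particles, stood at 10.6, 8.91 and 9.72 FPKM in controls and at 12.4, 12.5 and 11.9 FPKM under the knockdown label. RRP1, another early factor, stood at 21.3, 22.0 and 20.8 FPKM and at 24.9, 26.0 and 23.5 FPKM. Both had groups that did not overlap, with log2 changes of 0.31 (SE 0.06, limma adjusted p = 0.0106) and 0.20 (SE 0.05, 0.0266). The NOP16 call was lost with equal FPKM sums (0.153) and without control library 2 (0.0569), with a lowest value of 0.00536. The RRP1 call was lost with no filter (0.0531), with quantile normalization (0.0685), with equal FPKM sums (0.461, or 0.0935 without mitochondrial mRNAs), without any 1 of control libraries 1, 2 and 3 (0.0777, 0.076 and 0.113) and without knockdown library 2 (0.0985), with a lowest value of 0.00916.

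BRIX1 and WDR74 came close to the threshold, with log2 changes of 0.24 (adjusted p = 0.0568) and 0.16 (adjusted p = 0.058) and groups that did not overlap. BRIX1 takes part in building the large subunit, and WDR74 in its maturation. NIP7 and PPAN, which act in precursor processing, had estimates of 0.17 (95% interval from 0.01 to 0.32) and 0.16 (from -0.09 to 0.41) with overlapping groups, and PPAN rested on 231 to 346 fragments. NOP2, the methyltransferase that makes 5-methylcytosine in 28S rRNA, was listed at only 0.321, 0.401 and 0.2496 FPKM in controls and 0.1999, 0.317 and 0.180 FPKM under the knockdown label (23 to 48 fragments) and was not tested.

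Of the abundant nucleolar proteins, 2 of 5 were called higher and 0 lower (2 and 0 at an unadjusted p under 0.05 and by voom). Over all tested rows 10.9% were called higher and 5.91% lower, and with 5 genes the count is a description only. All 5 estimates were above 0, and differences between them were not tested. NPM1, nucleophosmin, was the most abundant member, at 194.8, 196.9 and 197.7 FPKM in controls and at 247.5, 212.2 and 225.5 FPKM under the knockdown label. The controls lay within 3 FPKM of each other and all 3 knockdown values were above them, with library 1 the highest. Its log2 change was 0.21 (SE 0.06, limma adjusted p = 0.044), and reads of its processed copies can have been shared with it. NCL, nucleolin, the next in abundance, stood at 157.0, 163.9 and 167.6 FPKM and at 189.9, 161.9 and 168.2 FPKM. Its groups overlapped, since libraries 2 and 3 were within or near the control range, and the estimate was 0.09 (95% interval from -0.06 to 0.23). LYAR, a zinc finger protein of the nucleolus, stood at 21.8, 20.9 and 20.6 FPKM and at 25.5, 23.9 and 23.6 FPKM, without overlap (log2 0.20, SE 0.05, adjusted p = 0.0267).

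Both calls of that set were fragile, and the count higher over all rows also fell under each setting named here. That of NPM1 was lost with no filter (0.0983), median scaling (0.06), quantile normalization (0.192), equal FPKM sums (0.374, or 0.132 without mitochondrial mRNAs), without any 1 of control libraries 1, 2 and 3 (0.125, 0.149 and 0.131) and without knockdown library 1 (0.0564), against a lowest value of 0.0284. That of LYAR was lost with quantile normalization (0.091), equal FPKM sums (0.463, or 0.0963 without mitochondrial mRNAs), without any 1 of control libraries 1, 2 and 3 (0.05, 0.116 and 0.114) and without knockdown libraries 1 and 2 (0.051 and 0.0625), against a lowest value of 0.0167. DDX21, a helicase that links polymerase I and II transcription to rRNA processing, and GNL3, nucleostemin, had estimates of 0.08 (95% interval from -0.06 to 0.21) and 0.05 (from -0.06 to 0.17), with overlapping groups.

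Genes of the same pathways outside the members were read from lists written by role, of which 186 of 197 were tested. In all, 50 were called higher and 2 lower (26.9% and 1.1%, against 10.9% and 5.91% of all tested rows), with a median log2 change of 0.09. Other small subunit factors had 15 of 48 higher and 0 lower (20 and 0 at an unadjusted p under 0.05, 18 and 0 by voom), of which the smallest p-values were those of PDCD11, an early processing factor, which rose from 26.8 ± 1.34 to 37.4 ± 3.44 FPKM (SD, n = 3), and NOL6, which rose from 15.0 ± 0.307 to 18.7 ± 0.665 FPKM. Other large subunit factors had 9 of 44 higher and 0 lower (17 and 1 at an unadjusted p under 0.05, 12 and 1 by voom). Of these EBNA1BP2 rose from 31.3 ± 0.353 to 42.3 ± 0.556 FPKM, with limma adjusted p = 0.000424 and a log2 estimate of 0.42 (SE 0.04), and RRS1, which helps to bring in 5S RNA, from 28.9 ± 0.503 to 35.6 ± 1.505 FPKM. Genes of the nuclear exosome and RNase MRP, which trim and cut the precursor, had 4 of 22 higher and 0 lower (6 and 0, 4 and 0), with EXOSC4 at 35.4 ± 2.37 and 49.2 ± 5.17 FPKM and EXOSC5 at 15.0 ± 0.705 and 19.3 ± 0.658 FPKM. Equal FPKM sums left 6 genes of all these lists higher, and the calls of NOL6, RRS1 and EXOSC5 were then lost (0.0899, 0.119 and 0.114).

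Among the other polymerase genes the shares called higher were near the 10.9% of all tested rows. Other polymerase I genes had 2 of 14 higher and 0 lower (2 and 1 at an unadjusted p under 0.05, 2 and 0 by voom). One was POLR1G, a subunit of polymerase I alone that the table lists under its older symbol CD3EAP, at 5.05 ± 0.466 and 6.22 ± 0.337 FPKM (limma adjusted p = 0.0293), and the other was POLR2E, a subunit that all 3 nuclear polymerases share, at 53.9 ± 2.89 and 65.2 ± 2.96 FPKM. Polymerase III genes had 1 of 13 higher and 0 lower (3 and 0, 1 and 0), and that one was MAF1, a repressor of polymerase III, at 83.0 ± 2.87 and 95.6 ± 3.13 FPKM. The POLR1G call was lost without control library 2 (0.125) or 3 (0.118), without knockdown library 1 (0.0604) or 2 (0.0985), with no filter (0.0831) and with equal FPKM sums (0.244, or 0.0831 without mitochondrial mRNAs), against a lowest value of 0.0164. The POLR2E call was lost without control library 3 (limma adjusted p = 0.0603) or knockdown library 2 (0.0506), and with equal FPKM sums (0.203). The MAF1 call was lost without any 1 of control libraries 1, 2 and 3 (0.0577, 0.0956 and 0.123), without knockdown library 2 (0.0916), with quantile normalization (0.0827) and with equal FPKM sums (0.449, or 0.0708 without mitochondrial mRNAs). The lowest values over the alternatives were 0.00614 and 0.0111.

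The list of MYC targets outside the nucleolus had 17 of 32 higher and 0 lower (20 and 0 at an unadjusted p under 0.05, 17 and 0 by voom) and a median log2 change of 0.17. The count fell to 9, 6 and 6 without control libraries 1 to 3 in turn, to 9 without knockdown library 2, and to 2 with equal FPKM sums. Calls fell over all rows too, from 1179 higher to 717, 404 and 387 without control libraries 1 to 3. They fell to 514 without knockdown library 2 and to 150 with equal FPKM sums. SRM, spermidine synthase, rose from 164.9 ± 3.81 to 229.7 ± 20.96 FPKM (limma adjusted p = 0.00262, log2 estimate 0.47 with SE 0.07), and PRMT5, an arginine methyltransferase, from 25.9 ± 0.255 to 32.5 ± 1.34 FPKM. With equal FPKM sums the SRM call held and that of PRMT5 did not (0.12). This list also holds CDKN1A, which MYC is known to repress and which was called higher, at 101.3 ± 2.07 and 116.5 ± 4.65 FPKM (limma adjusted p = 0.0261), and it was named after its values were seen. The CDKN1A call was lost without any 1 of control libraries 1, 2 and 3 (0.0701, 0.107 and 0.119), without knockdown library 2 (0.0995), with quantile normalization (0.182) and with equal FPKM sums (0.525, or 0.101 without mitochondrial mRNAs), against a lowest value of 0.0138. In the network of MYC partners and rivals, 2 of 13 were higher and 2 lower (15.4% each, against 10.9% and 5.91% of all tested rows). With so few genes these counts are given as a description only. ZBTB17, the MYC partner MIZ-1, rose from 11.7 ± 0.656 to 14.9 ± 0.867 FPKM, and MLX from 16.6 ± 0.897 to 20.1 ± 0.230 FPKM, a call lost without control library 2 (0.0537) and with equal FPKM sums (0.234, and 0.0673 for ZBTB17). MLXIPL, a partner of MLX, and MGA, a rival of MYC for MAX, fell by 0.30 and 0.23 on the log2 scale and were named after their values were seen. The MLXIPL call was lost without control library 2 (0.059) or 3 (0.0604), and that of MGA without any 1 of control libraries 1, 2 and 3 (0.054, 0.0944 and 0.15), without knockdown libraries 1 and 2 (0.0761 and 0.0807), with no filter (0.0854) and with equal FPKM sums (0.0525). MAX, named as the partner of MYC and outside the rule for naming, at 10.6 ± 0.213 and 11.8 ± 0.754 FPKM, was not called (adjusted p = 0.113).

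**Figure D4:**
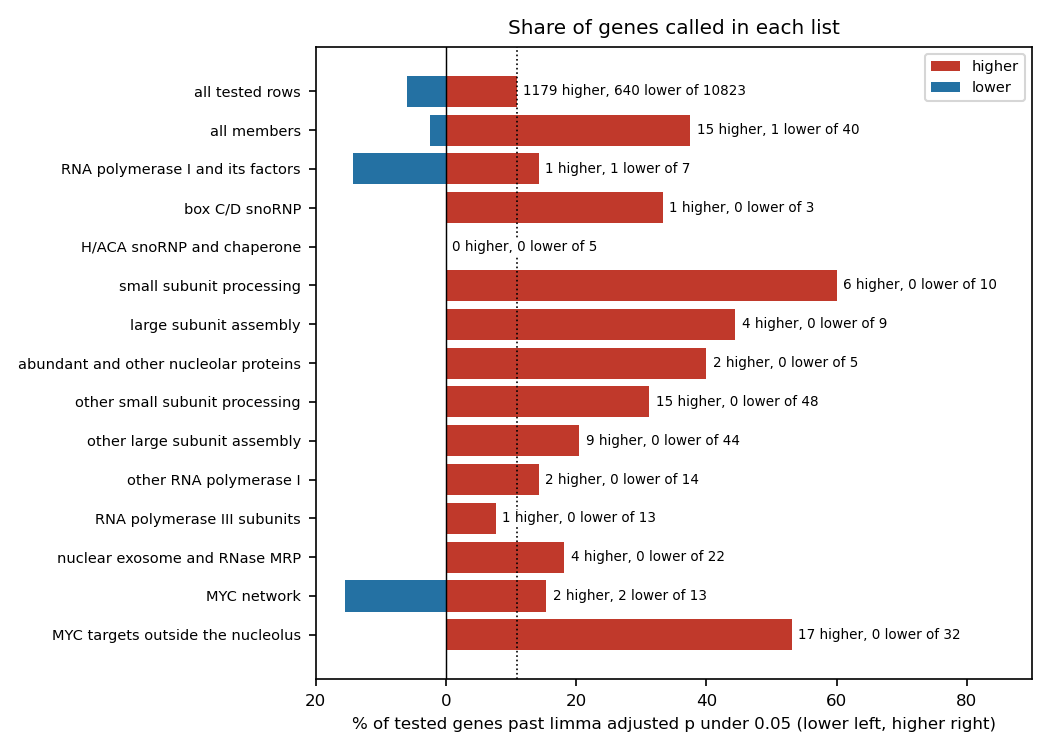
Share of tested genes called by limma (x axis, percent; higher to the right in red, lower to the left in blue) in each role group of the members and each pathway list (rows); the dotted line marks the 10.9% of all tested rows called higher. Small subunit processing (6 of 10) and the MYC targets outside the nucleolus (17 of 32) have the longest bars to the right as drawn. The H/ACA proteins have 0 of 5, which with so few genes is near the share at the dotted line. Differences between rows were not tested.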

How the data were processed

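Values are FPKM that the authors deposited per gene symbol, per the file headers, in an mRNA table of 19912 rows; the lncRNA table was not used here. Per the submitters' processing notes the tools were HISAT2, StringTie, Cuffdiff and edgeR, whose roles and versions the notes leave out. Genome build, annotation and strand use: not given in the sources used here. Reads of overlapping genes, antisense partners and near-identical copies may have been shared. Per the labels' protocols, libraries were made from polyadenylated RNA, and others with rRNA depletion; which kind gave the values used is not stated. The members and lists were chosen with earlier results of these data known, as were the tests and alternatives. Values were given in every library for MYC, each called member, and the most abundant and smallest-p member of each role, and up to 2 called genes per pathway list.

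Whole fragment numbers were recovered from FPKM steps: 14776 of 14803 rows above 0 in at least 3 libraries (99.8%) were whole within 0.003 fragments, all members among them, and of the tested rows 10799 entered voom. FPKM on the log2(FPKM + 1) scale, for the 10823 rows whose mean reached 0.5 FPKM, was fitted with limma 3.58.1 in R 4.3.3 (trend, two-sided, Benjamini-Hochberg over all rows) with 3 libraries a group and no rescaling; the fit was tested on simulated data. Alternatives were another pseudocount, filters, median scaling, quantile normalization, robust empirical Bayes, voom, a replicate block, each library left out and, added after seeing the data, equal FPKM sums with and without mitochondrial mRNAs. Older symbols were matched through the gene tables for 5 listed genes (UTP25, POLR1F, POLR1G, POLR1H and PHB1), never through a name that is now another gene's symbol. Tools were Python 3.11.15, numpy 2.4.6 and pandas 2.3.3. Intervals are 95% confidence intervals for the difference between the group means, with the variance moderated across genes by limma.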

Additional observations from a re-analysis of the deposited data

How the results depend on the processing

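Against 15 members higher and 1 lower, no filter gave 9 and 0 and equal FPKM sums gave 2 higher; leaving out 1 library gave 7 to 19 higher and 0 to 1 lower, with 0 lower without control library 1 or 2. The median log2 change of the members, 0.16 as reported, was 0.11 with quantile normalization, 0.0263 with equal FPKM sums and 0.0738 with sums without mitochondrial mRNAs, and 0.14 to 0.17 with 1 library left out. In the pathway lists, 50 higher and 2 lower became 33 and 6 with quantile normalization, 6 and 5 with equal FPKM sums, 27 and 7 with sums without mitochondrial mRNAs, 45 and 4 with median scaling, 57 and 1 at a mean of at least 5 FPKM, and 56 and 3 with voom; robust empirical Bayes gave 52 and 3, and leaving out 1 library 24 to 66 higher and 0 to 3 lower. The cause of these shifts was not tested, except that equal sums by construction divide the libraries labelled knockdown by their higher FPKM sums.

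Over all rows, 1179 higher and 640 lower became 595 and 365 with no filter, 150 and 876 with equal FPKM sums, 522 and 1209 with sums without mitochondrial mRNAs, 956 and 810 with median scaling and 817 and 808 with quantile normalization; leaving out 1 library gave 387 to 1773 higher and 239 to 969 lower. Deviations of same-numbered libraries from their group means correlated at 0.08, 0.04 and 0.28. Those of differently numbered libraries correlated from -0.212 to 0.153, the highest for control library 1 with knockdown library 2. The main fit took no pairs, and these values do not settle whether the numbers mark pairs. With the replicate block, 15 members were higher and 1 lower, and 56 and 2 genes of the pathway lists; over all rows the counts were 1488 and 835. NOP2, RRN3 and the lower EMG1 row rested on 23 to 48, 78 to 133 and 5 to 18 fragments, and why they were listed so low was not tested.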
